A study of Rattus norvegicus with 15 samples.

Results

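The miRNA described here is miR-335 (rno-miR-335), 1 of the 600 mature miRNA names counted in kidney cortex of PCK rats. It was taken by its name in the deposited count table, where 1 row carries it and no other arm or species name of miR-335 is listed. It was picked because its level was known to be low on the salt-deficient diet, so its levels on that diet are given as a description and carry no test. The study asked how dietary salt alters miRNAs in a cystic kidney. All animals carried the Pkhd1 mutation of the PCK/CrljCrlPkhd1pck/CRL strain, in which kidneys and liver turn cystic as in the recessive human disease, and there was no group without it. From 6 weeks of age they ate chow with 0.01%, 0.4% or 4% NaCl for 8 weeks, without any other treatment, and 5 cortex libraries represent each diet. The labels' protocol speaks of pools of 2-3 rats with 2 pools for each diet, and does not tie the 5 libraries to animals or pools. There may be fewer independent units than libraries, so every SD, SE and p below measures the spread between these libraries, which may be partly technical, and p-values may be too small.

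As background, miR-335 lies in an intron of Mest, a gene that is expressed from the paternal allele only and is best known from embryonic mesoderm, placenta and growing fat tissue. A miRNA of this kind is cut from the host transcript, matures in Dicer and guides Argonaute to messages that match its seed, the bases near its 5′ end. miR-335 is known as a suppressor of metastasis in human breast cancer cells, as a brake on the migration and differentiation of human mesenchymal stem cells, and in rat mesangial cells of the kidney as a repressor of the mitochondrial superoxide dismutase Sod2. In mouse cortical collecting duct cells its 3p arm falls on treatment with aldosterone, the hormone that raises sodium uptake through the epithelial sodium channel. The deposited name gives no arm.

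The miRNAs whose levels ran most closely with miR-335 across the libraries are shown first, since the profile of miR-335 is described below beside theirs. They come from RefSeq (GRCr8), 5′ to 3′, with the seed (bases 2 to 8) in capitals. The first 8 are the names most alike to miR-335, and the last 3 are imprinted or possibly imprinted miRNAs from outside the Dlk1-Dio3 domain.
miR-29c-3p: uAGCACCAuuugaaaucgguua
miR-409b: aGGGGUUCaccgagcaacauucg
miR-134-5p: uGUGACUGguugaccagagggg
miR-381-3p: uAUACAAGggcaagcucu
miR-541-5p: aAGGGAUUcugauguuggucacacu
miR-374-5p: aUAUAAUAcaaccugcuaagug
miR-300-3p: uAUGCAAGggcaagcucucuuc
miR-194-5p: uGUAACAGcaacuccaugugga
miR-489-3p: aUGACAUCacauauauggcagc
miR-653-5p: uUGAAACAuucucuacugaac
miR-184: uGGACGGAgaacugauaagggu
None of these miRNAs shares its seed with another of them. miR-335 itself had no entry in the reference used, so its sequence is not shown. Names that share its seed were not searched for.

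miR-335 was a scarce miRNA of the cortex. It had 726 reads over the 15 libraries and ranked 360 of the 519 names tested by mean level. Its mean was 8.46 scaled CPM (the read count over the TMM-scaled library size), against a median of 26.6 over all tested names. Library totals ran from 5767723 to 7826411 reads on 0.01% NaCl, 4789739 to 7384275 on 0.4% and 4167498 to 5420830 on 4%. Of the log2 ratios of other names to miR-335, the one with the smallest SD over the libraries had an SD of 0.29, for miR-369-3p, named after its values were seen.

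On the salt-deficient diet (0.01% NaCl) the 5 libraries held 18, 30, 24, 34 and 29 reads of miR-335, or 3.44, 5.17, 3.99, 5.27 and 4.74 scaled CPM. On 0.4% NaCl they held 40, 88, 51, 56 and 121 reads, or 7.24, 11.7, 10.2, 10.1 and 19.7 scaled CPM. On 4% NaCl they held 40, 49, 50, 37 and 59 reads, or 6.996, 8.30, 9.11, 8.05 and 12.7 scaled CPM. Every library of the 0.01% diet lay below every library of both other diets, and the libraries of the 0.4% and 4% diets overlapped. Library 5 was the highest of its diet on 0.4% and also on 4% NaCl. Library numbers only follow the order of the samples within a diet, and the same number on different diets marks no link between libraries.

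**Figure D1:**
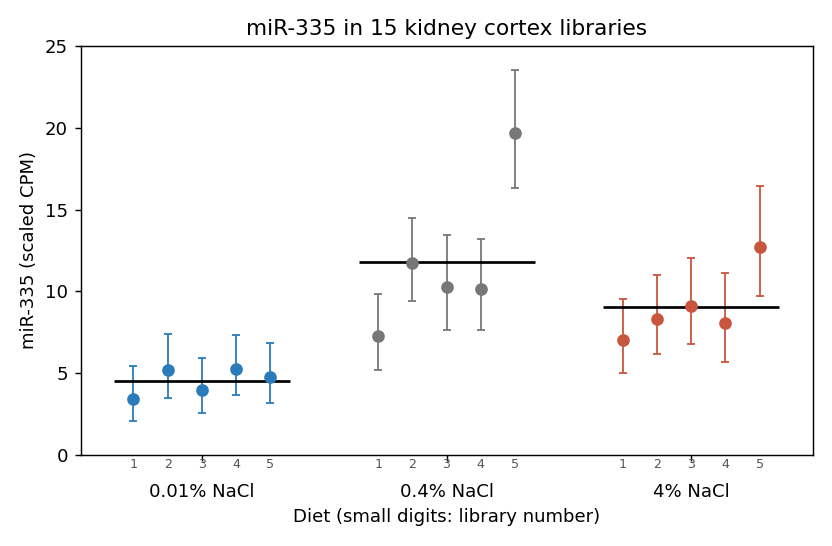
Level of miR-335 (scaled CPM, linear axis) in each of the 15 libraries, grouped by diet. Points are libraries, error bars are exact 95% Poisson intervals that cover counting error only, and black lines are diet means. The 5 libraries on 0.01% NaCl lie between 3.44 and 5.27, below the lowest library of either other diet, and library 5 on 0.4% NaCl stands highest at 19.7.

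The mean was 4.52 ± 0.784 scaled CPM (SD, n = 5) on 0.01% NaCl, 11.8 ± 4.69 on 0.4% and 9.04 ± 2.20 on 4%. With so few reads, counting alone gives an SD of 0.876 scaled CPM on 0.01% NaCl, so the spread seen on that diet was no larger than counting error. On 0.4% NaCl the SD was 3.30 times that of counting alone, and on 4% it was 1.67 times. The exact 95% Poisson interval of the highest library, 16.3 to 23.5 scaled CPM, lay above the intervals of the other 4 libraries of its diet. The biological coefficient of variation fitted by edgeR was 0.279 for miR-335 and 0.255 for the median name.

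The fitted difference between 0.01% and 0.4% NaCl was a log2 fold change of -1.38 ± 0.26 (SE), a level 0.384 times that on 0.4%. This is the comparison that led to the choice of miR-335. It ranked 28 from the lowest of 519 names. In this comparison 9.06% of names were called lower (adjusted p under 0.05) and 7.71% higher, and 7.51% had all low-salt libraries below all those of the 0.4% diet, while 31.4% had an unadjusted p under 0.05. With library totals as the only scaling, the calls were 79 lower and 25 higher in place of 47 and 40. The median of all names then shifted to -0.19 from -0.0027, and miR-335 stood at -1.58. Without library 5 of the 0.4% diet the log2 fold change of miR-335 was -1.14.

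Between 0.01% and 4% NaCl the log2 fold change of miR-335 was -0.99 ± 0.26 (SE), or 0.503 times the level on 4%. This comparison uses the same low-salt libraries and is likewise a description. Here 13.1% of names were called lower, 7.32% higher, and 9.63% had all low-salt libraries below all high-salt ones, while 35.6% had an unadjusted p under 0.05. With library totals only, 117 were lower and 14 higher in place of 68 and 38, and miR-335 stood at -1.22 against a median of -0.25 for all names.

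The comparison of 4% with 0.4% NaCl was not the one that led to miR-335, though it shares the 0.4% libraries with it. The log2 fold change was -0.39 ± 0.25 (SE), with a 95% interval from -0.91 to 0.14. This difference did not pass in edgeR's quasi-likelihood fit (adjusted p = 0.851). A level equal to that on 0.4% NaCl lies inside this interval. The log2 fold change of miR-335 was -0.12 without library 5 of the 0.4% diet and -0.56 without library 5 of the 4% diet. None of the 519 names was called in this comparison (0%) by edgeR, DESeq2 or limma-voom, 5.2% had an unadjusted p under 0.05 in edgeR, and 0.193% had all libraries of the 4% diet below all those of the 0.4% diet. In the authors' deposited table, with the sign turned to 4% minus 0.4%, miR-335 had log2 fold changes of -0.22 (DESeq2) and -0.42 (edgeR), with adjusted p of 0.992 and 0.936. The authors' deposited table gave -1.12 (DESeq2) and -1.35 (edgeR) for 0.01% minus 0.4% NaCl, and -0.82 and -0.98 for 0.01% minus 4%.

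miRNAs of other imprinted genes were compared with miR-335 in the same libraries. In bulk tissue, fewer cells of a type and less RNA per cell cannot be told apart, for miR-335 and for all names below. The Dlk1-Dio3 domain holds a large maternally expressed group of miRNA genes. Of 46 listed names of the domain, 33 passed the read filter and were tested. A scarce name can pass that filter through the diets where it is higher. The list was also chosen with earlier results of these data known, and it includes 5 names picked below for likeness to miR-335. The counts are therefore a description. Of the 33 tested names, 26 were lower on 0.01% than on 0.4% NaCl (9.06% of all names were), none was higher and 7 did not pass. The median over these names was -1.44, against -1.38 for miR-335 and -0.0027 over all names. Against 4% NaCl, 22 were lower (13.1% of all names were) and none higher, with a median of -1.26. Between 4% and 0.4% NaCl none passed, and the median was -0.11.

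The most abundant Dlk1-Dio3 names were miR-541-5p, miR-411-5p, miR-409b and miR-410-3p. miR-541-5p ran from 67.6 to 152 scaled CPM on 0.01% NaCl, 177 to 426 on 0.4% and 146 to 308 on 4%. miR-411-5p ran from 41.5 to 71.3, 102 to 157 and 79.5 to 199 scaled CPM on the same diets. Both were low on the salt-deficient diet in every library against 0.4% NaCl, as were miR-409b and miR-410-3p. The log2 fold changes of miR-541-5p, miR-411-5p, miR-409b and miR-410-3p against 0.4% NaCl were -1.40 ± 0.27 (SE), -1.28 ± 0.23, -1.56 ± 0.28 and -1.23 ± 0.26. Of these, miR-411-5p and miR-410-3p passed (edgeR, adjusted p = 0.00226 and 0.00461). miR-541-5p and miR-409b are also among the names picked below for likeness to miR-335, so no test is given for them. The levels of miR-411-5p and miR-410-3p also ran closely with miR-335 (Pearson's r = 0.874 and 0.813). Their list was chosen with earlier results of these data known, so their calls here are no independent support. Against 4% NaCl the log2 fold changes, in the same order, were -1.20, -1.23, -1.26 and -1.19, and miR-411-5p and miR-410-3p passed.

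Outside that domain, 9 names of other imprinted or possibly imprinted loci were tested. This list too was chosen with earlier results of these data known, so the p-values of its members are no independent support. On 0.01% against 0.4% NaCl, 3 of the 9 names were lower (9.06% of all names were), none was higher (7.71% of all names were) and 6 did not pass. The median over the 9 names was -0.47, against -0.0027 over all names. The members that were lower were miR-489-3p and miR-653-5p, both from the Calcr intron, and miR-184. Calcr, the calcitonin receptor gene, is expressed mainly from the maternal allele in mouse brain, and miR-184 was reported as paternally expressed in mouse brain.

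miR-489-3p held 12.4, 15.7, 13.3, 12.5 and 12.9 scaled CPM in the low-salt libraries, 24.8, 22.3, 25.7, 18.1 and 31.7 on 0.4% NaCl, and 23.6, 24.0, 32.1, 27.6 and 30.6 on 4%. Its low-salt libraries lay below all others, as those of miR-335 did. The log2 fold changes were -0.87 ± 0.16 (SE) against 0.4% NaCl (edgeR, adjusted p = 0.00226) and -1.04 ± 0.16 against 4% (adjusted p = 0.00108). For its neighbour miR-653-5p the low-salt libraries ran from 47.8 to 72.5 scaled CPM and the others from 103 to 164. Its log2 fold changes were -0.99 ± 0.16 (edgeR, adjusted p = 0.00143) and -0.94 ± 0.16 (adjusted p = 0.00164). The levels of miR-489-3p and miR-653-5p also ran closely with miR-335 (Pearson's r = 0.831 and 0.846), which limits what these p-values can show.

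miR-184 held 6.51, 5.68, 5.99, 6.66 and 6.54 scaled CPM on 0.01% NaCl, 15.4, 12.9, 18.7, 7.79 and 23.1 on 0.4%, and 28.7, 36.6, 8.93, 38.9 and 22.9 on 4%. It was low and even on the salt-deficient diet and varied widely on the others. The log2 fold changes were -1.31 ± 0.34 (edgeR, adjusted p = 0.0118; limma-voom, adjusted p = 0.0565) against 0.4% NaCl and -2.11 ± 0.34 (edgeR, adjusted p = 0.00164) against 4%. Between 4% and 0.4% NaCl its log2 fold change was 0.80 ± 0.32 and did not pass (edgeR, adjusted p = 0.609). For that comparison miR-335 had a negative value, and the difference between the 2 miRNAs was not tested.

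The other members of this list were the scarce miR-298-5p of the Gnas locus, miR-653-3p, and 4 names of the miR-466b and miR-466c genes, whose mouse counterparts lie in an intron of the paternally expressed Sfmbt2. None of these passed against 0.4% NaCl, where values ran up to 0.64. Against 4% NaCl miR-466c-5p was higher (log2 fold change 0.81 ± 0.25; edgeR, adjusted p = 0.0333), a call lost with library totals only (adjusted p = 0.171) and in 7 of the 15 refits without 1 library. The imprinted names outside the Dlk1-Dio3 domain thus held values of both signs.

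**Figure D2:**
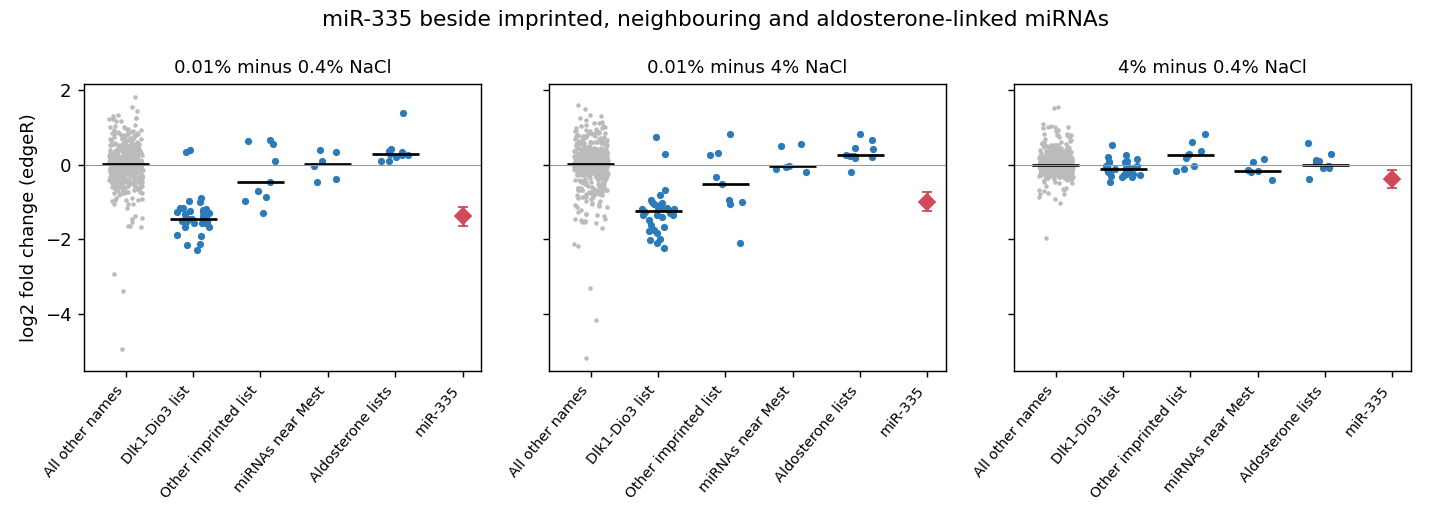
Log2 fold changes (edgeR) of miR-335 and of the lists it is compared with, in the 3 diet comparisons. Each dot is a miRNA name, black lines are list medians, and the red diamond with its error bar is miR-335 ± SE. In the 2 comparisons with 0.01% NaCl, miR-335 (-1.38 and -0.99) lies near the medians of the Dlk1-Dio3 list (-1.44 and -1.26), while the miRNAs near Mest lie around 0.

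miRNA genes that neighbour Mest were described next. In the RefSeq table Mest lies on chromosome 4, with Mir29a, Mir3587 and Mir29b1 on one side and Mir183 on the other as the nearest miRNA genes with tested names. These genes gave 6 names, and none passed in any of the 3 comparisons in edgeR with TMM scaling. miR-3587 and miR-29b-3p held close read counts in every library (2568 and 2525 in library 5 of the 0.01% diet), so they may not be separate signals. With library totals only, miR-29a-3p passed on 0.01% against 4% NaCl (log2 fold change -0.36, adjusted p = 0.0195). Against 0.4% NaCl their log2 fold changes on 0.01% NaCl ran from -0.47 to 0.39 (smallest adjusted p = 0.42, edgeR). miR-29a-3p, which represses collagens, had a log2 fold change of -0.050 ± 0.081 (SE). miR-29b-3p had 0.39 ± 0.31 (-0.12 without library 5 of the 0.01% diet), and its reads can also come from a second gene. miR-183-5p, best known from sensory cells, had -0.40 ± 0.51 (0.0069 without library 1 of the 0.4% diet and -0.69 without library 5 of that diet).

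Lists of miRNAs that respond to aldosterone in mouse cortical collecting duct cells were also examined, because a low-salt diet is known to raise that hormone. Hormone levels were not measured in these files. In those cells miR-1983 falls together with miR-335-3p, and the miR-23, miR-24 and miR-27 clusters rise. Here mmu-miR-1983, a mouse name in the table, ran from 4.995 to 9.65 scaled CPM on 0.01% NaCl and from 1.60 to 4.01 on 0.4%, without overlap. It was higher on 0.01% NaCl by a log2 fold change of 1.39 ± 0.33 (SE; edgeR, adjusted p = 0.00731). This direction is opposite to that of miR-335, whose deposited name does not say whether it is the 3p arm. mmu-miR-1983 was scarce, with 29 to 59 reads per library on 0.01% NaCl and 12 to 20 on 0.4%. Against 4% NaCl its value was 0.83 ± 0.32 and did not pass (edgeR, adjusted p = 0.0751), though it did in DESeq2 (adjusted p = 0.0469). It also passed in edgeR when library 1 of the 4% diet was left out (adjusted p = 0.0418).

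Of the 9 names of the miR-23, miR-24 and miR-27 clusters, none passed against 0.4% NaCl in edgeR. Their log2 fold changes lay between 0.086 and 0.41, around a median of 0.27. Without library 5 of the 0.01% diet, miR-24-1-5p stood at 0.082 in place of 0.41, miR-24-3p at 0.090 in place of 0.34 and miR-23a-3p at 0.084 in place of 0.27. DESeq2 called miR-27a-3p (adjusted p = 0.0449). Against 4% NaCl 1 of 9 was higher, a share near that of all names (7.32%). This name, miR-27a-5p, had a log2 fold change of 0.66 ± 0.19 (edgeR, adjusted p = 0.0247), a call lost with library totals only (adjusted p = 0.197). It was also lost without library 3 or 5 of the 0.01% diet or library 1 of the 4% diet. miR-27b-3p missed the threshold in that comparison (log2 fold change 0.23 ± 0.081; edgeR, adjusted p = 0.0503) and passed in DESeq2 (adjusted p = 0.0172) and limma-voom (adjusted p = 0.0454).

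The miRNAs most like miR-335 were ranked by Pearson's r of log2 scaled CPM over the 15 libraries, among the 339 other names with a mean of at least 10 scaled CPM. These values are a description. Names picked for likeness to a miRNA that was itself picked for its low level on 0.01% NaCl have their diet difference largely set by that choice, so their fold changes are given without a test. The libraries of 1 diet share that diet, and all names of a library share its depth and scaling. The highest were miR-29c-3p (r = 0.915), miR-409b (0.906), miR-134-5p (0.904), miR-381-3p (0.902), miR-541-5p (0.897), miR-374-5p (0.894), miR-300-3p (0.890) and miR-194-5p (0.881). Spearman's rho of these 8 ran from 0.811 to 0.896. The median r of all names compared was 0.0212. Without the libraries farthest from the median of miR-335, library 5 of the 0.4% diet and library 1 of the 0.01% diet, r ran from 0.808 for miR-374-5p to 0.894 for miR-381-3p.

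Among these 8, 5 belong to the Dlk1-Dio3 list, which has 8 names among those compared. The domain held 7 of the first 14 places, where 14 is the rank of the last of these 7, miR-410-3p, and so was set by the values. Its exception, named after its values were seen, was miR-127-3p with r = -0.497. The other 3 of the first 8 come from different loci. miR-29c-3p, the relative of the Mest neighbour miR-29a, is encoded on chromosome 13, and miR-374-5p on chromosome X. miR-194-5p, an epithelial miRNA of kidney and gut, is listed under a gene on chromosome 1 and can also come from a second gene.

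**Figure D3:**
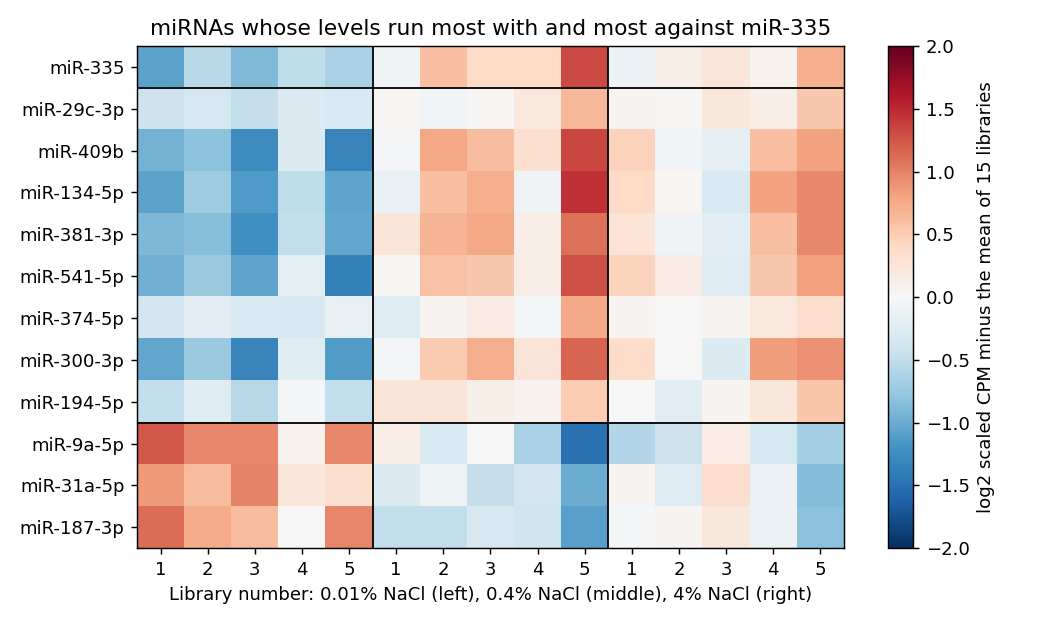
Log2 scaled CPM of miR-335, the 8 names most alike and the 3 least alike, each minus its mean over the 15 libraries (colour). Columns are libraries by diet. miR-335 and the 8 names below it are low on 0.01% NaCl (left) and highest in library 5 of the 0.4% diet, except miR-194-5p, which is highest in library 5 of the 4% diet. miR-9a-5p, miR-31a-5p and miR-187-3p are higher on 0.01% NaCl.

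miR-29c-3p was much more abundant than miR-335 and changed less. It held 431, 447, 412, 471 and 463 scaled CPM on 0.01% NaCl, 580, 550, 581, 659 and 909 on 0.4%, and 591, 578, 672, 621 and 833 on 4%. Its low-salt libraries lay below all others, and its library 5 was the highest on 0.4% and 4% NaCl, as for miR-335. The log2 fold changes were -0.56 ± 0.14 (SE) against 0.4% NaCl and -0.57 ± 0.14 against 4%.

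miR-134-5p, known for limiting dendritic spine size in rat neurons, held 12.8, 16.5, 12.3, 19.1 and 12.9 scaled CPM on 0.01% NaCl, 24.6, 41.8, 45.6, 26.1 and 76.2 on 0.4%, and 36.2, 28.1, 22.0, 47.9 and 53.7 on 4%. Its low-salt libraries lay below all others. The log2 fold changes were -1.54 ± 0.31 (SE) against 0.4% NaCl and -1.35 ± 0.31 against 4%. miR-374-5p ran from 43.4 to 51.4 scaled CPM on 0.01% NaCl and from 47.6 to 97.0 on 0.4%, with overlap, and its log2 fold change was -0.46 ± 0.16 (-0.29 without library 5 of the 0.4% diet). miR-194-5p had log2 fold changes of -0.60 ± 0.14 against 0.4% NaCl and -0.50 ± 0.14 against 4%.

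Each library's deviation from its diet mean was then used, which removes the diet difference that led to miR-335. The 8 names had r from 0.6250 for miR-381-3p to 0.867 for miR-374-5p, and the median of all names compared was 0.0157. The ranking over all libraries already contains these deviations, so values above that median are partly fixed by the choice of the 8. miR-374-5p and miR-29c-3p ranked 1 and 2 by this measure, and the Dlk1-Dio3 names of the 8 ranked 6 to 20. The Dlk1-Dio3 names miR-411-5p and miR-410-3p, which are outside the 8, ranked 32 and 61. Without library 5 of the 0.4% diet the deviations gave 0.731 for miR-374-5p, 0.652 for miR-29c-3p and 0.473 to 0.539 for the 5 Dlk1-Dio3 names of the 8. The Calcr-intron names miR-653-5p and miR-489-3p ranked 10 and 11 over all libraries (r = 0.846 and 0.831), and their deviations gave 0.410 and 0.570.

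**Figure D4:**
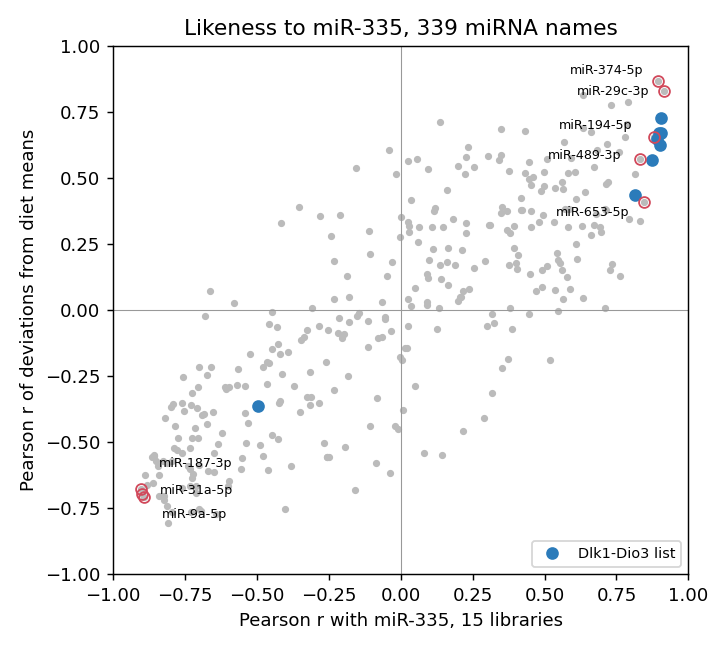
Pearson's r with miR-335 for all miRNA names compared, over the 15 libraries (horizontal) and for deviations from the diet means (vertical). Blue points are Dlk1-Dio3 names and red rings mark named miRNAs. miR-374-5p and miR-29c-3p stand at the top right (deviations 0.867 and 0.8295), and 7 of the 8 blue points lie on the right, with miR-127-3p on the left.

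The names least like miR-335 were miR-187-3p (r = -0.903), miR-31a-5p (-0.900) and miR-9a-5p (-0.891), the last best known from neural tissue. miR-187-3p ran from 25.1 to 54.5 scaled CPM on 0.01% NaCl, 11.5 to 20.1 on 0.4% and 14.03 to 29.3 on 4%. Its log2 fold change on 0.01% against 0.4% NaCl was 1.29 ± 0.23 (SE). That of miR-31a-5p was 1.06 ± 0.22, without overlap of its libraries. For deviations from the diet means, r was -0.676 for miR-187-3p, -0.697 for miR-31a-5p and -0.706 for miR-9a-5p.

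Marker lists were used to check the labelled tissue and other cells it may hold. All 17 names of the kidney tubule list were detected on each diet, with a summed level of 360882 to 659714 scaled CPM on 0.01% NaCl, 274884 to 468655 on 0.4% and 323054 to 395435 on 4%. The 7 names of the smooth muscle and stroma list summed to 44129.6 to 76354 scaled CPM on 0.01% NaCl, 21038 to 38599 on 0.4% and 25782 to 32971 on 4%, so this list was highest where miR-335 was lowest. Of these 7, 4 were higher and none lower on 0.01% than on 0.4% NaCl, where 7.71% of all names were higher. The 11 immune names summed to 3905 to 5039.6, 3022 to 4614 and 2516 to 6053 scaled CPM on the same diets, and 1 of 11 was higher on 0.01% against 0.4% NaCl, a share near that of all names. The endothelial list summed to 10039 to 12622, 9743 to 12981 and 9554 to 11769, and neither of its 2 names passed. None of 4 tested red blood cell names, 4 striated muscle names and 6 neural and endocrine names passed against 0.4% NaCl, and their summed levels on 0.01% NaCl overlapped those on 0.4%. The neural and endocrine names had log2 fold changes from -4.93 to 0.10 in that comparison. miR-9a-5p is not among them, though it is best known from neural tissue. Its log2 fold change there was 1.25 ± 0.27 (SE), given without a test because it was picked as least like miR-335. On 0.01% against 4% NaCl, 13.1% of all names were called lower, the direction of miR-335, and 7.32% higher. Lower were 1 of 11 immune, 1 of 17 kidney tubule, 1 of 4 striated muscle and 1 of 6 neural and endocrine names. Higher were 2 of 17 kidney tubule and 2 of 7 smooth muscle and stroma names. No marker matched for these lists was at 0 over all libraries of a diet. The liver list matched 0 names in the deposited counts, so miR-122 of liver was not analysed here. The part of these lists in the level of miR-335 was not tested.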

How the data were processed

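Kidney cortex RNA was made into TruSeq small RNA libraries and sequenced on a HiSeq machine, per the labels' protocols. Tools named in the submitters' processing notes are cutadapt, Bowtie and DESeq. Genome build, miRNA database and the treatment of reads that match several names: not given in the sources used here. In 1 table the authors deposited raw read counts per mature miRNA name (445 rat names of 600). They also deposited log2 fold changes and p-values of their own comparisons, from DESeq2 and edgeR per the file headers and sheet names. The 90 per-sample columns inside those comparison tables were not used.

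Libraries were grouped by the labelled diet. edgeR 4.0.16 (R 4.3.3) was run on all counts: filterByExpr kept 519 names and left out 81, followed by TMM scaling, robust dispersions and 1 quasi-likelihood fit of 3 diet means with 12 residual degrees of freedom. A name was called when its Benjamini-Hochberg adjusted p over all 519 was under 0.05. The code was tested on simulated data. Log2 scaled CPM used a prior count of 2. Poisson intervals cover counting error only, since reads carry no molecular identifiers. The alternatives were DESeq2 1.42.0, limma-voom (limma 3.58.1), other scalings and filters, and each library left out; those for the likeness ranking were chosen after seeing the data.

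Members and lists were chosen with earlier results of these data known. The named miRNAs are the 8 most and 3 least like miR-335 among names of at least 10 scaled CPM, all tested members of the imprinted (other than Dlk1-Dio3) and aldosterone lists, the 4 most abundant Dlk1-Dio3 names and the 6 tested names nearest Mest; cell type lists are given by counts and ranges. Of 20 names looked up in the RefSeq table, 19 matched.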

Additional observations from a re-analysis of the deposited data

Results flagged for a closer look

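Within 1 diet of 5 libraries, a single value stood far from the others (gap over range above 0.71) in 10 of 117 sets of libraries checked, where chance gives about 5%. None was a value of miR-335, whose gap over range was 0.302 on 0.01% NaCl, 0.638 on 0.4% and 0.631 on 4%.

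On 0.01% NaCl, library 2 was high for miR-489-3p (15.7 scaled CPM). Library 5 of that diet was low for miR-653-5p (47.8) and high for miR-29a-5p (26.3), miR-29b-3p (413.1) and miR-3587 (420.2). On 0.4% NaCl, library 5 was low for miR-187-3p (11.5), library 3 was low for miR-653-3p (2.01), and library 4 was high for miR-466c-5p (9.24) and miR-27a-5p (14.1). On 4% NaCl, library 3 was high for miR-29a-5p (21.7).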

How the results depend on the processing

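The log2 fold change of miR-335 stayed negative under every alternative run, from -1.58 to -1.31 for 0.01% minus 0.4% NaCl, -1.22 to -0.95 for 0.01% minus 4% and -0.40 to -0.35 for 4% minus 0.4%. Without 1 library it ran from -1.53 to -1.14, -1.10 to -0.83 and -0.56 to -0.12, and the last comparison passed in no refit (adjusted p from 0.441 to 0.998). Diet means without 1 library ran from 4.31 to 4.78 scaled CPM on 0.01% NaCl, 9.79 to 13.1 on 0.4% and 8.05 to 9.56 on 4%. With the 5 most abundant names left out of the totals, the means were 9.72, 24.6 and 19.0, since the totals shrink. A filter at a mean of 10 CPM removes miR-335 and left 7 Dlk1-Dio3 names called lower in each low-salt comparison.

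That filter called 23 names lower (0.01% minus 0.4%) and 44 lower (0.01% minus 4%). With library totals only the calls were 25 higher and 79 lower, and 14 higher and 117 lower. DESeq2 called 58 higher for 0.01% minus 4% NaCl. The edgeR count of 38 for that comparison ran from 21 (without library 1 of the 0.01% diet) to 48 when 1 library was left out, and was 24 without library 3 or 5 of the 0.01% diet. Of 855 refits of the 33 called values of other named miRNAs, 836 kept the call, 19 lost it and none changed sign. Many of these values belong to names picked as most or least like miR-335. That choice largely sets their diet difference, so these counts describe the processing only and are no test of those names. Of 2075 refits of 81 values that had not passed, 29 passed. Low read counts limit the precision for miR-335. No paired analysis was possible because the labels number no replicates.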
